A study of Rattus norvegicus with 4 samples.

Results

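Sodium transport was examined through 6 genes, chosen by name as targets of amiloride-type compounds and other carriers of sodium: the channel subunit gene Scnn1a, the exchanger genes Slc8a1 and Slc8b1, the cotransporter gene Slc12a2, and the sodium pump subunit genes Atp1b1 and Atp1b3. All 6 were found among the 34034 genes of the count table, and 5 had enough counts to compare. Rat (Rattus norvegicus) mesenchymal stem cells from femurs, which are stromal cells able to form bone, cartilage and fat, were kept in osteogenic induction medium and sampled at day 1, after 24 h of treatment. The 4 conditions were senescent cells given trichostatin A (TSA, which blocks histone deacetylases) and phenamil, senescent cells given TSA alone, senescent cells given vehicle (senescent control), and young cells given vehicle (young control). Each was 1 library of the same batch by label. All 4 had osteogenic medium, no library had phenamil alone, and no young cells had TSA. The series' design text names benzyl ether where the sample labels name phenamil, and the labels were followed. The labels give no doses, no age or strain of the animals, and no account of how cells became senescent.

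Animal cells keep sodium low inside by means of the sodium pump, an ATPase that moves sodium out and potassium in, and other carriers spend the gradient it makes. The epithelial sodium channel lets sodium in across the cell surface and is blocked by amiloride and, more strongly, by its derivative phenamil; amiloride analogues can also act on sodium/hydrogen and sodium/calcium exchangers. Sodium/calcium exchangers use sodium entry to remove calcium, and the cotransporter NKCC1 brings in sodium with potassium and chloride, which sets cell volume and chloride.

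Libraries held 10720172 counts with TSA + phenamil, 9873894 with TSA, 11024227 in the senescent control and 10905230 in the young control. They were made with a 3' tag kit, so a count stands for a read near a transcript's end. Levels are in CPM, counts scaled to a common library size after TMM normalisation (a trimmed mean of log ratios between libraries). Intervals are exact 95% intervals for counting error only, computed as if reads were independent. Reads are not independent molecules, so the intervals may be too narrow even for counting error. No p-value is given because 1 library per condition leaves no spread between replicates. Every ratio therefore describes a pair of libraries. The size rule asked for a ratio beyond 1.3-fold in either direction with an interval that excluded no change. Mitochondrial mRNA took 5.47% to 6.85% of counts, most in the TSA + phenamil library. All 7 markers of mesenchymal stromal cells were compared, with summed levels of 34720 to 41730 CPM over the 4 libraries. Most of that sum was Col1a1, at 26750 to 33590 CPM, and Vim, at 6010 to 7126 CPM. Thy1 stood at 753.5 to 803.3 CPM and Cd44 at 146.3 to 168.3 CPM. The rest were lower, Pdgfrb at 25.8 to 47.0 CPM, Nt5e at 10.1 to 16.5 CPM and Eng at 1.62 to 2.19 CPM. Of 5 osteoblast markers, Sp7 and Ibsp were at 0 everywhere and Bglap had at most 2 counts in any library. The other osteoblast markers were present, Runx2 at 17.3 to 26.7 CPM and Alpl at 16.0 to 21.6 CPM over the 4 libraries. Endothelial, adipocyte and muscle markers summed to at most 2.19 CPM in any library, neuronal or Schwann markers to at most 3.64 CPM and leukocyte markers to at most 9.30 CPM.

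Scnn1a, which encodes the pore-forming alpha subunit of the epithelial sodium channel, was too low to read. It had 3 counts with TSA + phenamil, 7 with TSA, 2 in the senescent control and 9 in the young control, or 21 in all against a minimum of 40. Its levels were 0.286 CPM with TSA + phenamil, 0.707 CPM with TSA, 0.182 CPM in the senescent control and 0.809 CPM in the young control, where a count of 0 would itself allow 0.270 to 0.303 CPM. In each of the 6 pairs of libraries the interval of its ratio included no change, the widest running from 0.742 to 38.4 for TSA over the senescent control. Of the other subunits, the beta subunit gene Scnn1b had 0 counts in all 4 libraries, and the gamma subunit gene Scnn1g had 4 counts in the TSA library and 0 elsewhere. The delta subunit gene Scnn1d had 5 counts with TSA + phenamil, 8 with TSA, 21 in the senescent control and 7 in the young control, 41 in all, which is 1 above the minimum. On those few counts its ratio was 3.03 (1.24 to 8.43) for the senescent over the young control, 0.424 (0.163 to 0.997) for TSA and 0.250 (0.0736 to 0.681) for TSA + phenamil over the senescent control, each past the size rule. Only the 21 counts of the senescent control brought Scnn1d past the minimum, and each of these ratios uses that library. They are therefore no separate evidence of a difference. A difference in Scnn1a, Scnn1b or Scnn1g was not detectable at this depth.

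Slc12a2, the gene of NKCC1, had the widest spread of the 5 readable genes. It had 1100 counts with TSA + phenamil, 1555 with TSA, 1626 in the senescent control and 1238 in the young control. Its levels were 104.8 CPM (98.7 to 111) with TSA + phenamil, 157 CPM (149 to 165) with TSA, 148 CPM (141 to 155) in the senescent control and 111 CPM (105 to 118) in the young control. The libraries thus fell into a high pair, TSA and senescent control, and a low pair, young control and TSA + phenamil, whose intervals did not overlap between pairs. Within each pair the ratio's interval included no change, at 1.065 (0.9925 to 1.14) for TSA over the senescent control and 0.941 (0.867 to 1.02) for TSA + phenamil over the young control.

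Between the pairs, Slc12a2 stood at 0.667 (0.617 to 0.721) for TSA + phenamil over TSA and at 0.710 (0.657 to 0.767) for TSA + phenamil over the senescent control. Of the 5270 abundant genes, those summing to 1000 counts or more, 2.47% and 2.14% lay at least as far from no change in those comparisons, in that order. For the senescent over the young control the ratio was 1.33 (1.23 to 1.43), and 5.33% of those genes lay at least as far out. Scaled by total counts it was 1.299, just short of the size rule. For TSA over the young control it was 1.41 (1.31 to 1.52). Epithelial markers, summed, were high in the same libraries, at 11.8 CPM with TSA + phenamil, 20.1 CPM with TSA, 16.0 CPM in the senescent control and 9.44 CPM in the young control. Nearly all of that was the keratin gene Krt8, while the defining markers Epcam and Cdh1 had at most 1 and 2 counts in any library. The part of these markers in the result was not tested, and in bulk RNA fewer cells of a type cannot be told apart from less RNA per cell.

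**Figure D1:**
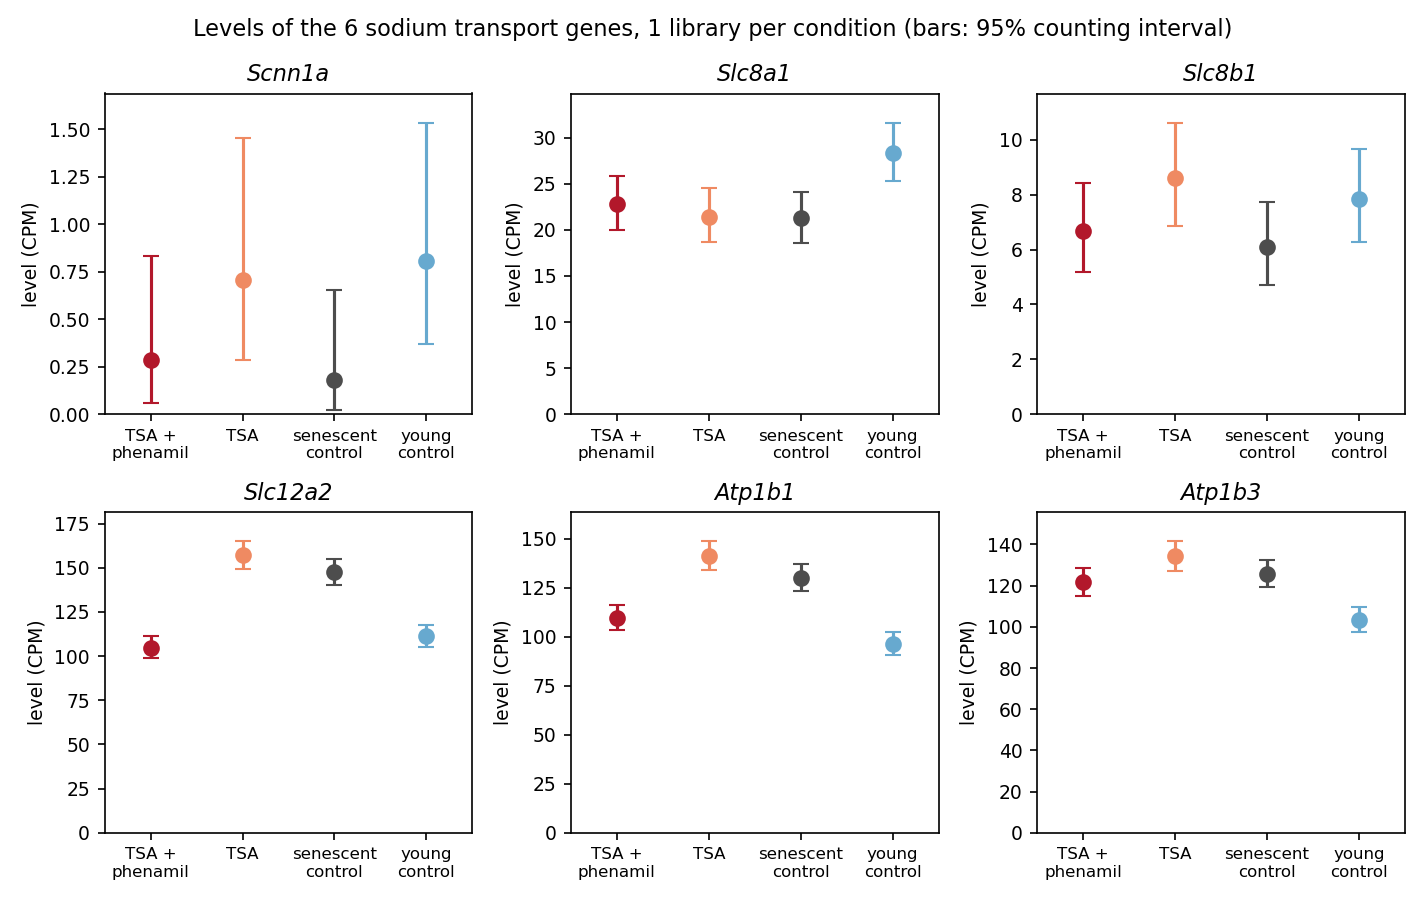
Level of each gene in CPM (vertical axes from 0, each gene on its own scale) in the TSA + phenamil, TSA, senescent control and young control libraries, with 95% counting intervals as bars and 1 library per point. Slc12a2 and Atp1b1 are highest in the TSA and senescent control libraries, Slc8a1 is highest in the young control at 28.3 CPM, and the bars of Scnn1a span most of its panel.

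The sodium pump is built of a catalytic alpha and a beta subunit, and the beta subunit is needed for folding and delivery to the cell surface. Atp1b1, the gene of the beta 1 subunit, had 1152 counts with TSA + phenamil, 1397 with TSA, 1432 in the senescent control and 1071 in the young control. Its levels were 109.8 CPM (104 to 116) with TSA + phenamil, 141 CPM (134 to 149) with TSA, 130.0 CPM (123 to 137) in the senescent control and 96.3 CPM (90.6 to 102) in the young control. All 4 levels stood apart from their neighbours in that order, TSA being highest and the young control lowest, with ratios between neighbours of 1.09 (1.01 to 1.17), 1.18 (1.095 to 1.28) and 1.14 (1.05 to 1.24). The ratio of the senescent over the young control was 1.35 (1.25 to 1.46), past the size rule, and that of TSA over the young control was 1.47 (1.35 to 1.59). TSA + phenamil over TSA gave 0.778 (0.719 to 0.841), short of the rule by TMM and past it, at 0.760, with total counts. TSA + phenamil over the senescent control gave 0.844 (0.781 to 0.913). The Krt8 signal given above was high in the same libraries, and its part here was not tested either.

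Atp1b3, the gene of the beta 3 subunit, varied less. It had 1276 counts with TSA + phenamil, 1328 with TSA, 1384 in the senescent control and 1150 in the young control, or 122 CPM (115 to 128), 134 CPM (127 to 142), 126 CPM (119 to 132) and 103 CPM (97.52 to 109.6) in the same order. The young control was the lowest, and the other 3 libraries formed a run in which no neighbours differed beyond counting error. The ratios over the young control were 1.18 (1.09 to 1.27) with TSA + phenamil, 1.298 (1.198 to 1.405) with TSA and 1.22 (1.12 to 1.32) in the senescent control, none past the size rule. TSA + phenamil over TSA gave 0.906 (0.838 to 0.979), and over the senescent control 0.968 (0.896 to 1.05).

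The balance of both beta subunit genes does not depend on scaling between libraries, since both are counted in the same library. Atp1b1 made up 47.4% (45.4 to 49.5) of the counts of the pair with TSA + phenamil, 51.3% (49.4 to 53.2) with TSA, 50.8% (49.0 to 52.7) in the senescent control and 48.2% (46.1 to 50.3) in the young control. The odds of Atp1b1 against Atp1b3 with TSA + phenamil were 0.858 (0.768 to 0.959) times those with TSA and 0.873 (0.782 to 0.974) times those in the senescent control. Against the young control they were 0.969 (0.863 to 1.09) times with TSA + phenamil, and the senescent control stood at 1.11 (0.992 to 1.24) times the young control. With TSA the odds were 1.13 (1.008 to 1.27) times those in the young control, an interval that barely excluded no change. These are shares of tag counts and give no ranking of the subunits.

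A regulator of the pump was read beside the beta subunits. Fxyd5, which encodes a small membrane protein that modulates the pump, had 75.0 CPM with TSA + phenamil, 108 CPM with TSA, 98.4 CPM in the senescent control and 73.3 CPM in the young control. It was past the size rule in the same comparisons as Slc12a2, at 0.695 (0.633 to 0.763) for TSA + phenamil over TSA, 0.762 (0.694 to 0.836) for TSA + phenamil over the senescent control, 1.34 (1.23 to 1.47) for the senescent over the young control and 1.47 (1.34 to 1.62) for TSA over the young control. Krt8 was high in the same libraries, at 11.5 CPM with TSA + phenamil, 20.1 CPM with TSA, 15.4 CPM in the senescent control and 9.44 CPM in the young control, and its part in the Fxyd5 result was not tested.

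Slc8a1 encodes NCX1, the exchanger of the cell surface that moves calcium out against incoming sodium and is best known from heart muscle. It had 239 counts with TSA + phenamil, 212 with TSA, 234 in the senescent control and 315 in the young control. Its levels were 22.8 CPM (20.0 to 25.9) with TSA + phenamil, 21.4 CPM (18.6 to 24.5) with TSA, 21.2 CPM (18.6 to 24.1) in the senescent control and 28.3 CPM (25.3 to 31.6) in the young control. The young control alone was high, and the 3 libraries of senescent cells lay within counting error of each other. The senescent over the young control gave 0.750 (0.630 to 0.891) and TSA over the young control 0.756 (0.632 to 0.903), both past the size rule. TSA + phenamil over the young control gave 0.804 (0.677 to 0.954), short of it. Against the senescent control the ratio was 1.07 (0.892 to 1.29) with TSA + phenamil and 1.01 (0.834 to 1.22) with TSA.

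Slc8b1 encodes NCLX, the exchanger of the inner mitochondrial membrane that releases calcium from mitochondria in return for sodium. It could be read only coarsely, with 70 counts with TSA + phenamil, 85 with TSA, 67 in the senescent control and 87 in the young control. Levels were 6.67 CPM (5.199 to 8.43) with TSA + phenamil, 8.59 CPM (6.86 to 10.6) with TSA, 6.08 CPM (4.71 to 7.72) in the senescent control and 7.82 CPM (6.27 to 9.65) in the young control. No neighbours in the order of levels differed beyond counting error. Only the extremes did, with TSA over the senescent control at 1.41 (1.01 to 1.98), a lower bound that barely cleared no change. The senescent over the young control gave 0.777 (0.557 to 1.08) and TSA + phenamil over TSA 0.776 (0.558 to 1.08).

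Promoters of 3 of the 6 genes are in the RefSeq table of the GRCr8 build, a build other than the one named for the counts, each covering 250 bases before to 50 after the annotated start. They are shown because these are a gene of the high and low library pairs (Slc12a2), a gene of the same direction but smaller spread (Atp1b3), and the gene that was high in the young control (Slc8a1). Capitals mark matches, on either strand, to motifs that many promoters carry. The GC box, a site read by factors of the Sp family, was searched as GGGCGG. The CCAAT box, which is bound by the factor NF-Y, was searched by the letters of its name. The TATA box, where the general transcription machinery can dock, was searched as TATAAA with no mismatch allowed. Slc12a2 lies at chr18:53546083-53546382 on the plus strand, Atp1b3 at chr8:105821102-105821401 on the minus strand and Slc8a1 at chr6:19023309-19023608 on the plus strand.
Slc12a2: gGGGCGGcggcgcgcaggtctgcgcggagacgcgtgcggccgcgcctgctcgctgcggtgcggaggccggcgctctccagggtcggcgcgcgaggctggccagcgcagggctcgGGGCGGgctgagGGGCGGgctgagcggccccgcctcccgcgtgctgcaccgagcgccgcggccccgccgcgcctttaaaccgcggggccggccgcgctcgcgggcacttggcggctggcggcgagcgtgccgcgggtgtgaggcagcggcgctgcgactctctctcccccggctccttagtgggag
Atp1b3: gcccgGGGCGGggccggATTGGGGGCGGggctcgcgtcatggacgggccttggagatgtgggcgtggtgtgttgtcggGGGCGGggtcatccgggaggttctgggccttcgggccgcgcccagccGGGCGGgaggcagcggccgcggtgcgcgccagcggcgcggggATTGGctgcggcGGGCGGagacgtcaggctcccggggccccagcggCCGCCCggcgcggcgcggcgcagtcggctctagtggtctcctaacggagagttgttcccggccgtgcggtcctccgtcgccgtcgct
Slc8a1: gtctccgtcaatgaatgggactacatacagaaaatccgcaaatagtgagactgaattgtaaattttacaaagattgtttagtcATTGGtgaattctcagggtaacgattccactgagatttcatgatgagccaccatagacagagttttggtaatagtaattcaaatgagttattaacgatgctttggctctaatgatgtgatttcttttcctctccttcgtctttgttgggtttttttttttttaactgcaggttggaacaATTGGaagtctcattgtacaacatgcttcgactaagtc

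The Slc12a2 window held 3 GC boxes, no CCAAT box and no TATA box, with a GC content of 80.7%. The Atp1b3 window held 6 GC boxes and 2 CCAAT boxes, one abutting a GC box and none overlapping, with a GC content of 77.7%. The Slc8a1 window held 2 CCAAT boxes and no GC box, with a GC content of 36.3%. Close to its annotated start this window reads a run of t followed by aactgcag, letters also found where an intron ends. Whether the Slc8a1 window is a promoter was not tested, so its values describe the window only. Among all 33469 promoters of the table, 33.1% held a GC box, 37.5% a CCAAT box and 14.2% a TATA box, and the median GC content was 51.7%. These are matches of letters and were not tied to the counts.

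The senescent control was first set against the young control, the pair that differs by senescence. Slc12a2 and Atp1b1 were higher and Slc8a1 lower in the senescent control, with Atp1b3 and Slc8b1 short of the size rule. That is 2 higher, 1 lower and 2 neither of 5, where 8.05% of all 12228 compared genes were higher and 8.06% lower. The genes, the lists and the rules were chosen with earlier results of these data known. The counts past the rule and the medians, here and in the comparisons below, are therefore no test of a difference from all genes. The median log2 ratio was 0.28 over the 5 genes and 0.01 over all genes. With an added coefficient of variation of 0.1 between cultures, assumed and not measured, only Atp1b1 kept its call here, and Slc12a2 and Slc8a1 lost theirs.

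TSA over the senescent control asked what the deacetylase inhibitor changed in senescent cells. Slc8b1 alone was past the rule, as higher, and the other 4 ratios ran from 1.01 for Slc8a1 to 1.09 for Atp1b1. Of all genes 7.01% were higher and 6.80% lower. With the same assumed variation its call was lost. The median log2 ratio was 0.095 over the 5 genes, against 0.001 over all.

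TSA + phenamil over the senescent control gave 1 gene lower, Slc12a2, and 4 neither, against 7.28% of all genes higher and 6.67% lower, with a median of -0.05. TSA + phenamil over TSA, the pair that differs by phenamil, likewise gave Slc12a2 lower and 4 neither, against 8.38% higher and 7.56% lower of all genes. Its median log2 ratio was -0.36 over the 5 genes and -0.002 over all. The single log2 ratios ran from -0.584 for Slc12a2 to 0.088 for Slc8a1. These comparisons share the TSA + phenamil library, and with 1 member each past the rule the count is near the background.

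Against the young control, TSA gave 2 genes higher (Slc12a2 and Atp1b1), 1 lower (Slc8a1) and 2 neither, where 11.2% of all genes were higher and 11.8% lower. The assumed variation ended the call of Slc8a1. TSA + phenamil gave none of the 5 past the rule, where 7.27% of all genes were higher and 6.98% lower. By the interval alone, with no minimum size, 3 of the 5 differed there, Atp1b1 at 1.14 (1.05 to 1.24), Atp1b3 and Slc8a1. The interval alone excluded no change for 34.9% of all genes in the senescent over the young control, 30.5% in TSA and 31.7% in TSA + phenamil over the senescent control, 33.7% in TSA + phenamil over TSA, and 41.3% in TSA and 31.9% in TSA + phenamil over the young control. Ratios of the 5270 abundant genes had a standard deviation of 0.20 to 0.29 on the log2 scale over the 6 comparisons.

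**Figure D2:**
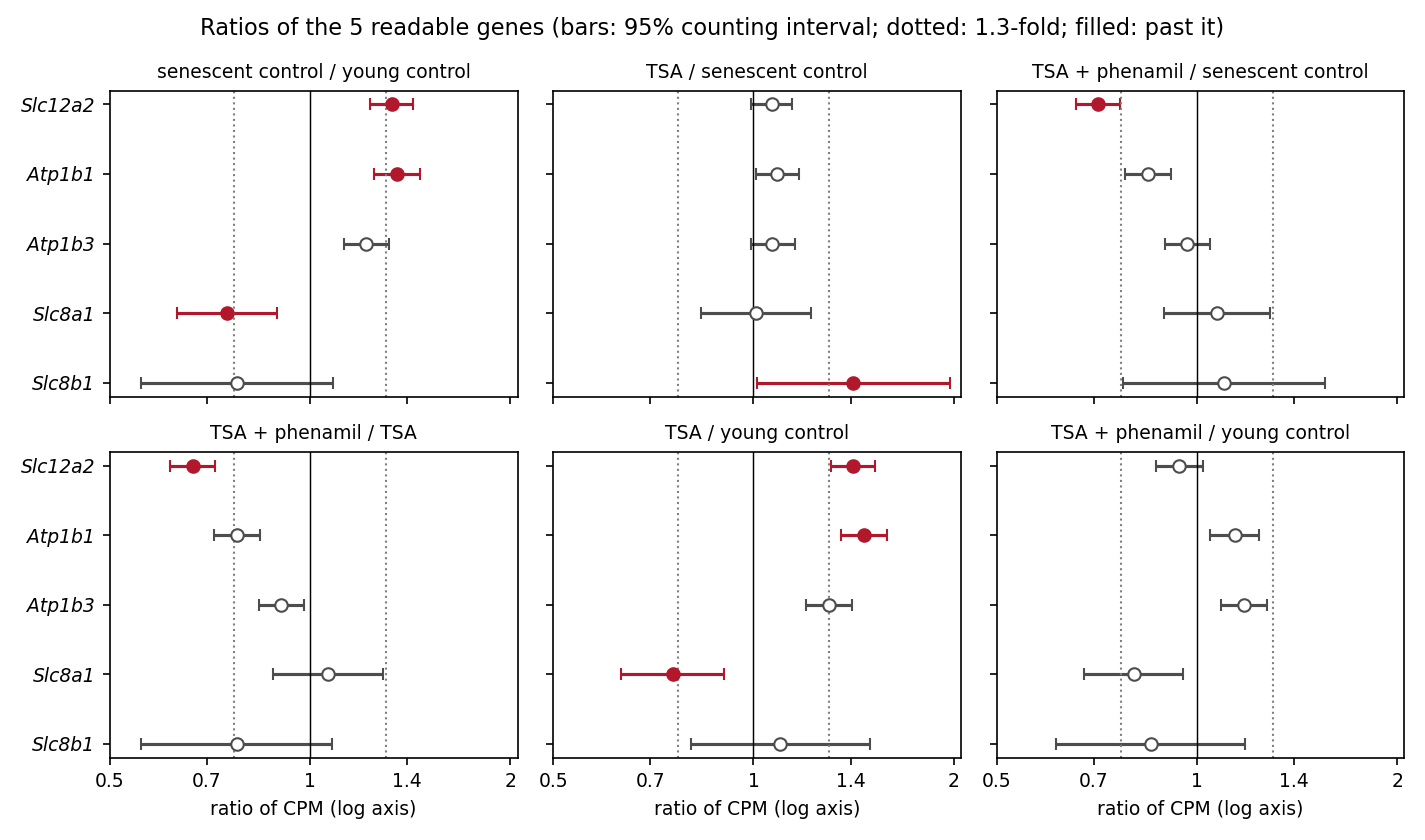
Ratio of CPM for the 5 readable genes (log axis) in 6 pairs of libraries, with 95% counting intervals as bars, 1.3-fold as dotted lines, and filled red points where a gene is past the size rule. Slc12a2 lies left of the lower dotted line in both comparisons of TSA + phenamil with other senescent cells, and right of the upper one for TSA and the senescent control over the young control.

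The genes closest in pattern were found by the root-mean-square difference of log2 CPM, each gene centred on its own mean over the 4 libraries, among 9376 genes with at least 200 counts. Nearest to Slc12a2 were Arsi at 0.0245, Acat2 at 0.0292 and Mlkl at 0.0311. Atp1b1 was nearest to Pkp1 at 0.0047, Alcam at 0.0113 and Cebpzos at 0.0137, and Atp1b3 to Sat1 at 0.0078, Polr2k at 0.0086 and Yae1 at 0.0091. For Slc8a1 these included Foxk1 at 0.0056 and Rab22a at 0.0136, and for Slc8b1 they were Irak3 at 0.0303, Ciz1 at 0.0369 and Add3 at 0.0386. Among the 5 genes themselves, Atp1b1 lay 0.09 from Atp1b3 and 0.11 from Slc12a2, whereas Slc8a1 and Slc12a2 were farthest apart at 0.38.

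A wider set of 10 lists of sodium and calcium transport genes held 111 genes found in the table, 63 of them with enough counts. Without the 5 readable genes described above, 58 remained, of which 7 (12.1%) were higher and 8 (13.8%) lower in the senescent over the young control, against 8.05% and 8.06% of all genes. TSA over the senescent control gave 5 higher (8.62%) and 4 lower (6.9%), against 7.01% and 6.80% of all genes. TSA + phenamil over the senescent control gave 6 higher (10.3%) and 4 lower (6.9%), against 7.28% and 6.67%. TSA + phenamil over TSA gave 4 higher (6.9%) and 3 lower (5.17%), against 8.38% and 7.56%. TSA over the young control gave 7 higher (12.1%) and 8 lower (13.8%), against 11.2% and 11.8%, and TSA + phenamil over the young control 5 higher (8.62%) and 6 lower (10.3%), against 7.27% and 6.98%. The median of the 63 genes stayed between -0.01 and 0.03 in all 6 comparisons.

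Sodium/hydrogen exchangers are other proteins that amiloride analogues can reach, and 9 of the 15 genes found in their list were readable. In TSA + phenamil over TSA this list had Slc9a5 higher at 2.23 (1.06 to 5.00), from 26 against 11 counts. Chp1, a cofactor of these exchangers, was higher over the young control in all 3 senescent libraries, at 1.97 (1.39 to 2.83) with TSA + phenamil, 2.12 (1.49 to 3.03) with TSA and 1.80 (1.27 to 2.59) in the senescent control. Nherf2, a scaffold protein gene, was at 0.720 (0.560 to 0.923) for TSA over the senescent control and 1.37 (1.08 to 1.74) for the senescent over the young control, and Slc9a8 was at 0.693 (0.525 to 0.912) for TSA over the young control.

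Of 9 sodium/calcium exchangers 3 were readable, the third being Slc24a3, which exchanges calcium and potassium for sodium and was higher at 1.305 (1.08 to 1.58) for TSA + phenamil over TSA. Slc12a2 was the most counted of 9 cation-chloride cotransporters, of which 6 were readable. Among its relatives, the potassium-chloride cotransporter genes, Slc12a4 was at 1.12 (1.01 to 1.25) for TSA + phenamil over TSA and Slc12a5, with 34 against 19 counts, at 1.69 (0.936 to 3.13). Slc12a5 was past the rule at 1.92 (1.09 to 3.48) for the senescent over the young control, 0.557 (0.303 to 0.990) for TSA over the senescent control and 1.80 (1.01 to 3.30) for TSA + phenamil over the young control. The orphan member Slc12a9 was at 1.58 (1.01 to 2.47) for TSA + phenamil over the senescent control and at 0.519 (0.337 to 0.787) for the senescent over the young control.

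In the list of the pump, 8 of 15 genes were readable, and its median log2 ratio was 0.35 for the senescent over the young control and -0.32 for TSA + phenamil over TSA. The part of the Krt8 signal in these medians was not tested. Of the scarcer members, Fxyd6 was at 0.447 (0.240 to 0.802) for TSA + phenamil over TSA and 4.23 (2.07 to 9.52) for TSA over the senescent control. Fxyd2 was at 3.37 (1.303 to 10.2) for the senescent over the young control, from 20 against 6 counts. It had 48 counts in all and would miss the minimum without those of the senescent control. The Fxyd2 ratio is therefore no separate evidence of a difference. Fxyd1 was at 0.737 (0.602 to 0.900) for TSA + phenamil and 0.749 (0.610 to 0.918) for TSA over the young control.

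Among 17 regulators of sodium transport, 14 were readable. Sgk1, the kinase that keeps sodium channels and exchangers at the cell surface, had 23.9 CPM with TSA + phenamil, 37.0 CPM with TSA, 25.7 CPM in the senescent control and 27.3 CPM in the young control. The TSA library alone was high, with a ratio of 0.647 (0.549 to 0.761) for TSA + phenamil over TSA and 1.44 (1.23 to 1.69) for TSA over the senescent control. Nedd4, the most counted regulator and a ubiquitin ligase of the family that removes the channel, was at 1.08 (1.05 to 1.12) for TSA + phenamil over TSA. Furin, a protease that activates the channel, was at 0.731 (0.661 to 0.808) for the senescent over the young control and 0.679 (0.610 to 0.755) for TSA over the young control. Klhl3, an adaptor for the degradation of WNK kinases, was at 1.91 (1.26 to 2.96) for TSA + phenamil over TSA and 0.560 (0.389 to 0.796) for the senescent over the young control.

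Voltage-gated channels were scarce, with 6 of 15 genes readable. Scn1a was at 2.78 (1.56 to 5.18) with TSA + phenamil and 2.23 (1.21 to 4.25) with TSA over the senescent control, which itself stood at 0.505 (0.264 to 0.929) over the young control with 17 against 34 counts. Scn2a gave 1.39 (1.01 to 1.92) with TSA + phenamil, 1.55 (1.13 to 2.14) with TSA, and 0.696 (0.507 to 0.951) for the senescent over the young control. Summed neuronal or Schwann markers were at 3.05 CPM with TSA + phenamil, 3.64 CPM with TSA, 1.27 CPM in the senescent control and 0.270 CPM in the young control, with Sox10 at 0 in all 4 libraries, and their part in the Scn1a and Scn2a values was not tested. Scn7a was at 0.569 (0.323 to 0.977) with TSA + phenamil, 0.356 (0.175 to 0.678) with TSA and 0.419 (0.223 to 0.753) in the senescent control, each over the young control. Of the bicarbonate cotransporters, the most counted, Slc4a7, was at 0.8001 (0.722 to 0.887), short of the size rule, and Slc4a4 at 0.744 (0.570 to 0.969) for TSA + phenamil over the senescent control. Slc4a7 was as low with TSA alone, at 0.794 (0.715 to 0.882) over the senescent control. For TSA + phenamil over TSA it was at 1.01 (0.901 to 1.13).

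Around mitochondrial calcium, where Slc8b1 acts, all 11 genes found were readable and the most counted, Ghitm, had ratios from 0.978 to 1.03 over the 6 comparisons. Mcur1 was at 0.519 (0.304 to 0.862) with TSA + phenamil, 0.367 (0.195 to 0.656) with TSA and 0.556 (0.334 to 0.907) in the senescent control over the young control. Letm1 was at 0.757 (0.621 to 0.922) with TSA + phenamil and 0.758 (0.624 to 0.920) in the senescent control, and Mcub at 0.706 (0.504 to 0.984) with TSA + phenamil, again over the young control. Of the calcium pumps, which remove the same ion as Slc8a1, Atp2b4 was at 1.32 (1.19 to 1.46) for TSA + phenamil over TSA and 0.761 (0.687 to 0.842) for TSA over the senescent control. The most counted calcium pump gene, Atp2b1, was at 0.848 (0.7999 to 0.899) for TSA + phenamil over TSA and 1.19 (1.13 to 1.26) for the senescent over the young control. Atp2a1, with 48 counts in all, was at 2.55 (1.005 to 7.27) with TSA + phenamil and 3.02 (1.22 to 8.51) with TSA over the senescent control. It would miss the minimum without the 17 counts of TSA + phenamil or without the 19 of TSA. Both ratios also use the same 7 counts of the senescent control, so they are no separate evidence of a difference.

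**Figure D3:**
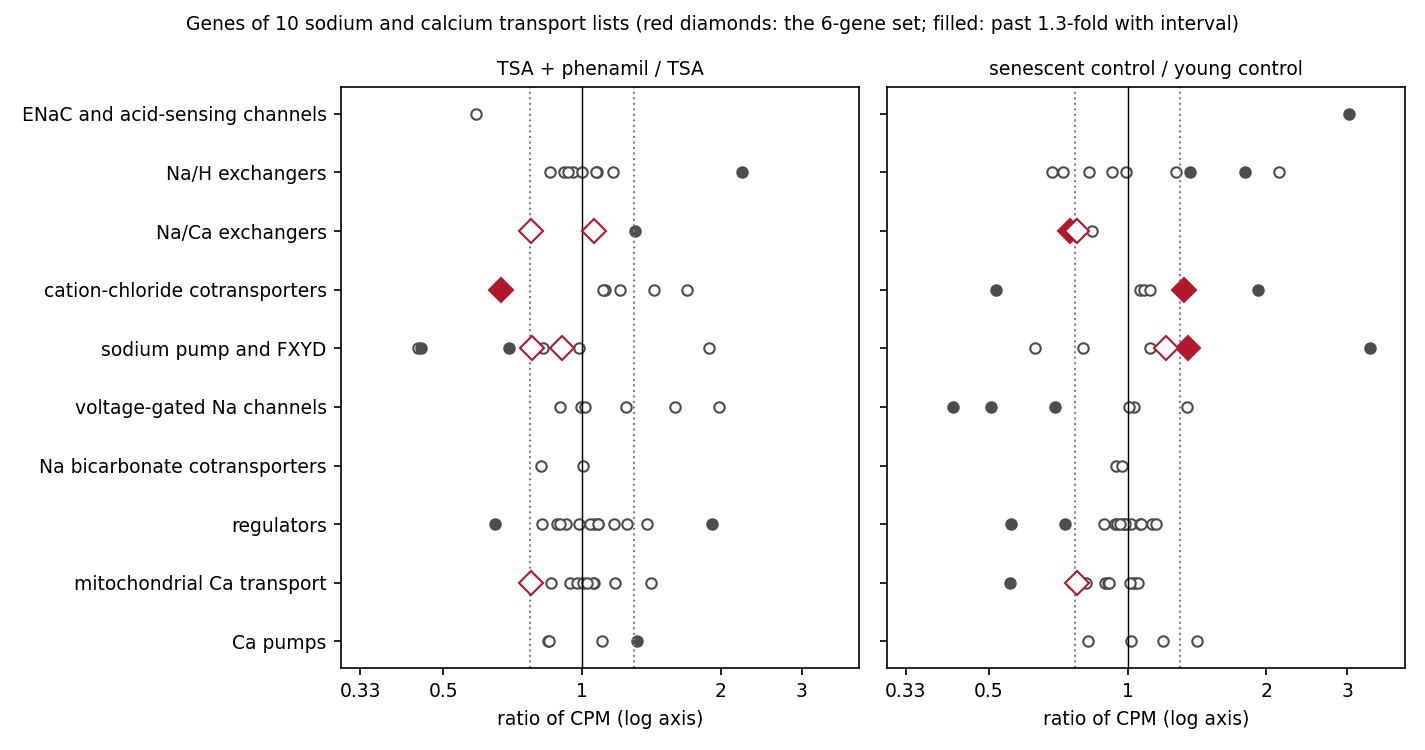
Ratio of CPM (log axis) for the readable genes of 10 lists, with TSA + phenamil over TSA on the left and the senescent over the young control on the right. Red diamonds are genes of the set of 6, grey circles other genes, filled symbols are past the size rule, dotted lines are 1.3-fold, and a gene with 0 counts in the young control is left out on the right. Slc12a2 lies at 0.667 on the left and 1.33 on the right, and most open symbols lie between the dotted lines.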

How the data were processed

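RNA of 4 libraries was read with the QuantSeq 3' FWD kit on a NextSeq 500, per the labels' protocols. The authors' raw counts per gene, per the file headers, were used as deposited. The submitters' processing notes list HTSeq 2.0.2, STAR 2.7.10b and mRatBN7.2 without saying how each was used. Annotation, strand setting and duplicate handling: not given in the sources used here. The authors' deposited log2 values equalled log2 of the count over 1 factor per library, plus 1, within 0.000532, and served as an alternative.

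Counts were scaled by TMM (edgeR 4.0.16, R 4.3.3). A gene needed 40 counts summed across libraries, which left 12228 of 34034 (35.9%). Ratios have Clopper-Pearson conditional intervals at 95% (scipy 1.17.1), and single levels exact Poisson intervals, for counting error only. edgeR's quasi-likelihood test could not be run with 1 library per group. List medians used a prior count of 0.5. Of 114 list symbols 3 were older or alternate names of genes also listed and were not found. Named list genes are those past the size rule in any comparison and the most counted of each list, except some that are not reported here; counts per list include them. The 6 genes, the lists and the rules were chosen with earlier results of these data known. Alternatives were scaling by total counts, by DESeq2 1.42.0 size factors or by TMM leaving out ribosomal protein and mitochondrial genes, other count minimums and size rules, an assumed spread between cultures, and the deposited log2 values.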

Additional observations from a re-analysis of the deposited data

How the results depend on the processing

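No paired analysis was possible because each condition had 1 library. Depth limits Scnn1a, and Slc8b1 was read at 67 to 87 counts per library. Scaling moved no member's log2 ratio by more than 0.059, and no ratio past the size rule changed direction under the alternatives run. At 1.5-fold the number of members past the rule was 0 in each comparison, Slc12a2 in TSA + phenamil over TSA coming closest at 0.667. By the interval alone it was 4 of 5 for the senescent control and 4 for TSA over the young control, 2 for TSA and 2 for TSA + phenamil over the senescent control, 3 for TSA + phenamil over TSA and 3 for TSA + phenamil over the young control. With total counts it was 2 for TSA + phenamil over TSA. If cultures are taken to vary with a coefficient of variation of 0.1, 1 member, Atp1b1, was past the rule for the senescent over the young control and 0 for TSA over the senescent control. Slc12a2 was past it with TSA + phenamil over TSA, at an interval of 0.5002 to 0.889, and over the senescent control, at 0.533 to 0.947. Of the members' single ratios under each alternative, 216 kept their side of the rule, 14 lost it and 10 gained it.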
